A study of Mus musculus with 9 samples.

Results

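The 7 genes Ciita, Cd74, H2-Aa, H2-Ab1, H2-Eb1, H2-DMa and H2-DMb1 encode the regulator and the core proteins of antigen presentation by major histocompatibility complex (MHC) class II. They were taken by symbol from the 32285 genes of the count matrices. Each symbol named 1 row, and all 7 passed the filters on low counts of both fits described here.

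Gene expression had been measured by droplet-based single-nucleus RNA sequencing in epididymal adipose tissue, the visceral fat pad of the testis, of male C57BL/6J mice. There were 9 libraries, and each was 1 pool of nuclei from 5 mice, so that no value of a single mouse could be read. The chow libraries were C (mice 18 weeks old), CC (26 weeks) and CCC (39 weeks). By the methods of the study the control diet of C was low in fat, and CC and CCC mice were later moved, together with HC and HHC, to a standard chow, so that C ended on another diet than CC and CCC. The obese libraries were H (18 weeks old, 12 weeks of high-fat diet) and HH (31 weeks old, 25 weeks of high-fat diet). The weight-loss libraries were HC (26 weeks old, 12 weeks of high-fat diet and then 8 weeks of chow) and HHC (39 weeks old, 25 weeks of high-fat diet and then 8 weeks of chow). The remaining libraries both ended on 4 weeks of high-fat diet at an age of 30 weeks: CCH met this diet for the first time, and HCH met it again after 12 weeks of high-fat diet and 8 weeks of chow. By their labels C, H, HH, CCH and HCH belonged to the sequencing set S075, and CC, CCC, HC and HHC to the set S019, so that both obese libraries lay in one set and both weight-loss libraries in the other.

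Class II molecules are pairs of an alpha and a beta chain that display peptides from engulfed material to CD4+ T cells. They are made mainly by macrophages, dendritic cells and B cells, and the coactivator Ciita switches on their genes together with those of Cd74 and H2-DM. Cd74, the invariant chain, guides new class II molecules to the endosome and blocks their groove until cathepsins cut it away, after which H2-DM (a pair of H2-DMa and H2-DMb1) loads the peptide. H2-Aa and H2-Ab1 are the alpha and beta chain of the A molecule. H2-Eb1 is the beta chain of the E molecule, whose alpha chain C57BL/6 mice do not make.

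On the GRCm38 build, in which the matrices were made, Ciita lies on chromosome 16 (chr16:10480059-10528418, plus strand) and Cd74 outside the MHC. The other 5 genes lie in the MHC on chromosome 17: H2-DMa at chr17:34119541-34139101, H2-DMb1 at chr17:34153072-34160230, H2-Ab1 at chr17:34257689-34269419, H2-Aa at chr17:34282744-34287823 and H2-Eb1 at chr17:34305867-34316674. H2-Aa is on the minus strand and the others are on the plus strand. In the GENCODE vM21 annotation the gene model of H2-DMa overlaps the antisense gene CR974462.3 on the same strand and, on the opposite strand, the start of Brd2 and the antisense gene CR974462.4. Ciita overlaps Dexi, and H2-Eb1 overlaps the antisense gene Gm20513, in both cases on the opposite strand. All UMIs of these genes are given as counted by the authors.

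Class II promoters carry an X box, bound by the RFX complex and by CREB-type factors, and a Y box, bound by NF-Y, which together hold the site where Ciita acts. The promoter stretches of the members in which both letter patterns were found are shown, since these letters resemble the boxes; a match of letters is not a bound site. The capitals mark AACNNNTGATG or AACNNTGACG (X letters) and, 8 to 30 bases further on, GATTGG (Y letters). Sequences are RefSeq promoter windows on GRCm38.p6, 250 bases before to 50 after a start site, written 5′ to 3′ in the direction of the gene. They lie at chr17:34287842-34287927 (H2-Aa, minus strand), chr17:34305753-34305837 (H2-Eb1, plus strand) and chr17:34153074-34153159 (H2-DMb1, plus strand).
H2-Aa: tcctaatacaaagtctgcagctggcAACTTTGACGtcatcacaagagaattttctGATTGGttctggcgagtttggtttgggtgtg
H2-Eb1: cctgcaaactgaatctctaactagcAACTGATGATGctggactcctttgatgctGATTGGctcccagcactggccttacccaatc
H2-DMb1: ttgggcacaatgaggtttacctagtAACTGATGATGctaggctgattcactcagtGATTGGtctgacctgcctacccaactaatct

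The X letters began 79 (H2-Aa), 89 (H2-Eb1) and 92 (H2-DMb1) bases before the start that RefSeq gives; the GENCODE model of H2-DMb1 begins further upstream and holds these letters. Searched on both strands, the pair was present in 9 of 32851 promoter windows (0.0274%), and 5 of these 9 belonged to class II genes: the 3 genes above, H2-DMb2 and H2-Ob. The other 4 were those of 1700048F04Rik, Cic, Mcm10 and Pja2. GATTGG alone was found in 16.1% of all windows, the first X form in 0.615% and the second in 0.265%. These letters were chosen after the windows had been read, so the count is a description of the windows only. The windows searched held none of Ciita and H2-Ab1, and Cd74 was not among the genes with the pair. Neither of the 2 windows of H2-DMa held the pair, nor did those of H2-Oa and H2-Eb2. The first of them (chr17:34122582-34122881) had 73.0% GC and 29 CG dinucleotides, against medians of 52.7% and 7 over all windows, and the second had 39.0% GC and none. In GENCODE vM21 the first window also holds the start of Brd2 on the opposite strand (chr17:34122634), and the model of H2-DMa begins further upstream. The GC and CG values thus cannot be assigned to H2-DMa alone. A stretch of the first window (chr17:34122712-34122831, plus strand) is given for contrast, with CG in capitals.
H2-DMa: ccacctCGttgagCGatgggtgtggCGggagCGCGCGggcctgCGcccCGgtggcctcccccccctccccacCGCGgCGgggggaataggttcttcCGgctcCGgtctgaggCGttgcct

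The first question was how much class II RNA the whole tissue held under each diet. Class II RNA was higher in both obese libraries and after renewed high-fat diet than in chow, was within the range of chow after a first 4 weeks of high-fat diet, and differed between the 2 weight-loss libraries. The summed UMIs of the 7 genes (6922 to 88215 a library) were scaled to CPM, the UMIs in every 1000000 UMIs of the library. They came to 174.6, 322.2 and 391.3 CPM in C, CC and CCC, 713.7 and 1541 in H and HH, 233.9 and 727.2 in HC and HHC, 279.4 in CCH and 1559 in HCH. H thus held 4.09-fold the level of C, HH 4.78-fold that of CC, and HCH 5.58-fold that of CCH. With a single library a diet, these ratios have no replicate check; the exact 95% intervals of their log2 values (1.996 to 2.067, 2.227 to 2.289 and 2.456 to 2.505) cover counting error only, here as for every interval below. In whole libraries more cells of a type and more RNA per cell cannot be told apart, and macrophage-gated nuclei made up 12.0%, 7.46% and 5.77% of the nuclei in C, CC and CCC against 53.9% in H and 42.1% in HH. A cell class was found for 62.3%, 47.1% and 42.0% of nuclei in C, CC and CCC, against 73.2% in H and 74.5% in HH. Nuclei of no class held 398 Ciita UMIs in CC, where macrophages held 233, and 169 in H, where macrophages held 905. The macrophage shares were thus not measured equally well in all libraries.

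**Figure D1:**
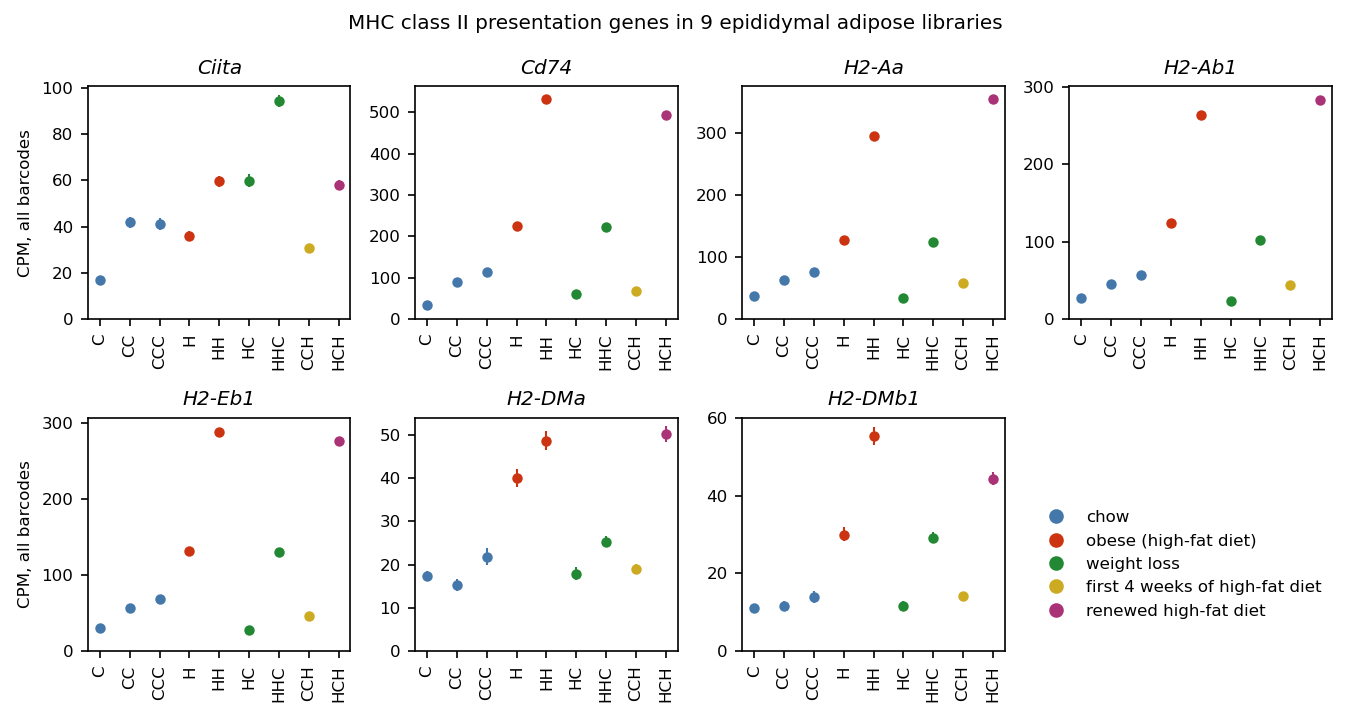
Level of each gene in each library, in CPM over all barcodes (y axis, linear, from 0), with the 9 libraries along the x axis in the colours of their diet state; points are single libraries and bars exact Poisson 95% intervals. HH and HCH stand highest for 6 of the 7 genes (H2-Aa 294.8 and 354.5 CPM), while Ciita is highest in HHC (94.3 CPM).

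Cd74 had 35.2, 90.2 and 113.7 CPM in C, CC and CCC, 224.4 and 530.9 in H and HH, 60.0 and 222.1 in HC and HHC, 67.8 in CCH and 493.1 in HCH. The obese libraries lay above all chow libraries, and the weight-loss libraries lay on both sides of the chow library of greatest age. H2-Aa had 37.0, 62.5 and 75.5 CPM in chow, 128.3 and 294.8 in H and HH, 34.7 and 124.8 in HC and HHC, 57.8 in CCH and 354.5 in HCH. H2-Ab1 had 27.0, 45.4 and 57.5 CPM in chow, 123.7 and 263.1 in H and HH, 22.8 and 102.1 in HC and HHC, 44.2 in CCH and 283.0 in HCH. H2-Eb1, the beta chain of E, had 30.0, 55.6 and 67.8 CPM in chow, 131.3 and 288.1 in H and HH, 27.2 and 129.5 in HC and HHC, 45.7 in CCH and 276.1 in HCH. For these 3 chains HC was the lowest of the 9 libraries and HHC lay above every chow library.

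The ratios between diets were smaller for the H2-DM peptide loader than for Cd74 and the A and E chains after renewed high-fat diet. H2-DMa had 17.2, 15.3 and 21.9 CPM in chow, 40.0 and 48.8 in H and HH, 17.8 and 25.3 in HC and HHC, 18.9 in CCH and 50.3 in HCH. H2-DMb1 had 11.1, 11.4 and 13.8 CPM in chow, 30.0 and 55.4 in H and HH, 11.6 and 29.2 in HC and HHC, 14.1 in CCH and 44.4 in HCH. Between HCH and CCH the ratio was 2.66 for H2-DMa and 3.16 for H2-DMb1, against 7.28 for Cd74, 6.14 for H2-Aa, 6.40 for H2-Ab1 and 6.04 for H2-Eb1.

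Ciita, the coactivator, had another order of libraries. It had 17.0, 41.8 and 41.0 CPM in C, CC and CCC, 36.0 and 59.7 in H and HH, 59.8 and 94.3 in HC and HHC, 31.0 in CCH and 58.0 in HCH. Chow and obese libraries overlapped, because H lay below CC and CCC, whereas both weight-loss libraries lay above all chow libraries. HHC with CCC gave a ratio of 2.30 and HC with CC one of 1.43, although Cd74 was lower in HC than in CC (ratio 0.665).

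To set these differences against a spread between libraries, the libraries of one diet state were taken as replicates in an edgeR quasi-likelihood fit of C, CC, CCC, H, HH, HC and HHC, whose spread therefore includes age, duration of diet and, within chow, the change of control diet, which cannot be told apart from the sequencing set there. Against chow, 3 of the 7 genes rose in the obese state at a Benjamini-Hochberg adjusted p (FDR) under 0.05 and none fell. Of all 20789 genes tested 26.6% were called, 14.6% higher and 12.0% lower. At an unadjusted p under 0.05 there were 6 of the 7 genes and 42.8% of all genes, and DESeq2 called 6 of the 7 and 36.4% of all. H2-DMa rose by 1.01 ± 0.19 (log2 fold change ± SE, FDR = 0.0128 by edgeR), H2-DMb1 by 1.53 ± 0.36 (FDR = 0.0243 by edgeR) and H2-Ab1 by 1.88 ± 0.57 (FDR = 0.0480 by edgeR). Cd74 (1.98 ± 0.62, FDR = 0.0529 by edgeR), H2-Aa (1.58 ± 0.52, FDR = 0.0620 by edgeR) and H2-Eb1 (1.76 ± 0.60, FDR = 0.0659 by edgeR) missed the threshold, as did Ciita (0.25 ± 0.39, FDR = 0.655 by edgeR). The median over the 7 genes was 1.58 and over all genes -0.04. None of the 3 calls held with the sequencing set as a covariate or without H or HH, where calls over all genes fell to 3199 of 20789, 540 of 21583 and 782 of 21393. The log2 fold change of H2-DMa was then 1.00, 1.13 and 0.89 (FDR 0.0510, 0.0746 and 0.109 by edgeR), that of H2-DMb1 1.58, 1.90 and 1.05 and that of H2-Ab1 2.47, 2.32 and 1.28. With the covariate or without H these values were thus about as large as in the fit of all 7 libraries or larger, while without HH they were smaller. Nor did any hold with age as a block, where 2760 of 20789 genes were called and H2-DMa had 0.87 (FDR = 0.0768 by edgeR). That fit reads H against C of the same age, and HH, alone at its age, adds nothing to the contrast. Over its 11 alternatives the adjusted p of H2-DMa ran from 1.0e-04 to 0.109, that of H2-DMb1 from 0.0011 to 0.176 and that of H2-Ab1 from 0.0046 to 0.280, by edgeR or DESeq2. Without C, CC or CCC the call of H2-Ab1 was lost (FDR 0.0993, 0.109 and 0.0747 by edgeR), and without CC that of H2-DMb1 (FDR 0.0733 by edgeR).

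After weight loss none of the 7 genes passed the edgeR test against chow, where 8.65% of all genes did (4.94% higher and 3.70% lower). At an unadjusted p under 0.05 there was 1 of the 7 genes by edgeR, Ciita (1.15 ± 0.39, FDR = 0.114), and 26.7% of all genes. DESeq2 called Ciita alone of the 7 (adjusted p = 0.0382 by DESeq2, within 0.0382 to 0.385 over the alternatives) and 18.6% of all genes. The other 6 genes had log2 fold changes of 0.19 (H2-DMa) to 0.73 (Cd74). Without HHC, Cd74 (-0.32), H2-Aa (-0.67), H2-Ab1 (-0.84) and H2-Eb1 (-0.82) turned, none of them called. With age as a block, which reads HC against CC and HHC against CCC, Ciita had 0.84 (FDR = 0.0778 by edgeR) and the A and E chains -0.09 to -0.06.

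The next question was which cells held this RNA. Nuclei within the quality limits of the study were assigned to 12 cell classes by lists of 8 markers each that held no class II gene. The leukocyte gene Ptprc, which is in none of these lists, had a UMI in 72.5% to 91.3% of macrophage-gated nuclei over the 9 libraries and in 3.53% to 41.4% of progenitor, endothelial and mesothelial nuclei. Dendritic cells had the highest level in each of the 3 libraries with at least 50 such nuclei, with 14.3, 13.7 and 18.2 UMIs of the 7 genes per nucleus in H, HH and HCH (65, 62 and 88 nuclei). B cells had 7.28, 5.43, 3.42 and 9.24 UMIs per nucleus in HH, HHC, CCH and HCH, the 4 libraries where they could be measured. Macrophages had 1.81, 2.59 and 3.26 UMIs per nucleus in C, CC and CCC, 2.61 and 5.04 in H and HH, 1.77 and 4.05 in HC and HHC, 3.65 in CCH and 8.67 in HCH. In CCH the macrophage level was thus above that of B cells, whose interval (3.02 to 3.85) contained it. As the most numerous of these cells, macrophages held 19.1% (CCC) to 61.0% (H) of the class II UMIs of all nuclei within limits, while 23.5% to 58.4% were in nuclei that no class claimed.

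**Figure D2:**
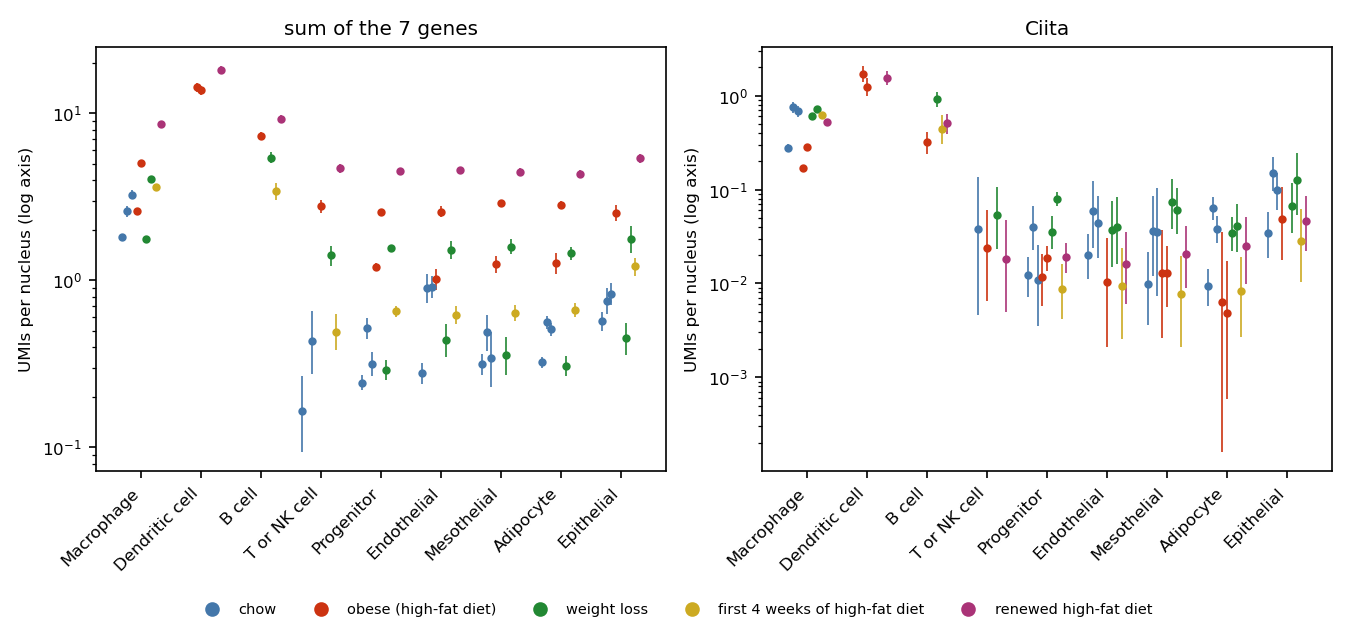
UMIs per nucleus of the 7 genes together and of Ciita alone (y axes, logarithmic) in 9 of the 12 cell classes, each point a library with at least 50 nuclei of the class, coloured by diet state, with exact Poisson 95% intervals; points at 0 UMIs are not drawn. The sum spans 0.165 to 18.2 UMIs per nucleus and in non-immune classes differs between libraries, while Ciita in macrophages, dendritic cells and B cells stays above its level in the other classes drawn.

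Class II UMIs were also found in nuclei of non-immune classes. In progenitor, endothelial and mesothelial nuclei together, whose level is taken here as a background of a source that was not tested, the 7 genes summed to 0.268, 0.582 and 0.470 UMIs per nucleus in C, CC and CCC, 1.19 and 2.64 in H and HH, 0.327 and 1.56 in HC and HHC, 0.642 in CCH and 4.51 in HCH. These levels were 14.4% (CCC) to 52.4% (HH) of the level in macrophages of the same library. The 3 classes were not alike in every library: endothelial nuclei had 0.913 UMIs in CCC against 0.316 in progenitor and 0.341 in mesothelial nuclei, and 0.898 in CC against 0.516 and 0.489. T or NK cells of mice, which lack class II, had 0.165 UMIs per nucleus in C, 2.77 in HH and 4.69 in HCH, and none of the 6 libraries with at least 50 such nuclei had a Cd74 level whose interval lay above the non-immune one (0.836- to 1.09-fold). Adipocytes showed the same for Cd74, at 0.658- to 1.05-fold. Median depths were 1104 to 1772 UMIs in T or NK nuclei and 2079 to 3470 in macrophage nuclei. By its methods the study estimated free RNA and applied no correction to its mouse samples.

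Ciita was different in this respect. Its non-immune level was 0.00859 (CCH) to 0.0745 (HHC) UMIs per nucleus, or 1.38% to 10.4% of the macrophage level. Macrophages stood 9.60-fold (HHC) to 72.7-fold (CCH) above it, B cells 12.3- to 51.6-fold and dendritic cells 73.9- to 166-fold, all with intervals above 1. Adipocytes did not stand above it in any library (0.287- to 1.74-fold, 0 of 9 intervals above 1). For the other 6 genes macrophages had 1.16-fold (H2-DMa in CC) to 26.2-fold (H2-DMb1 in CCC) the non-immune level. The highest value rests on very few non-immune UMIs (0.00549 per nucleus in CCC), and the median fold of H2-DMb1 was 4.70. The interval lay above 1 in 8 of 9 libraries for H2-DMa and in all 9 for the others. Epithelial nuclei had Ciita intervals above 1 in 6 of 8 libraries (1.62- to 4.75-fold).

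**Figure D3:**
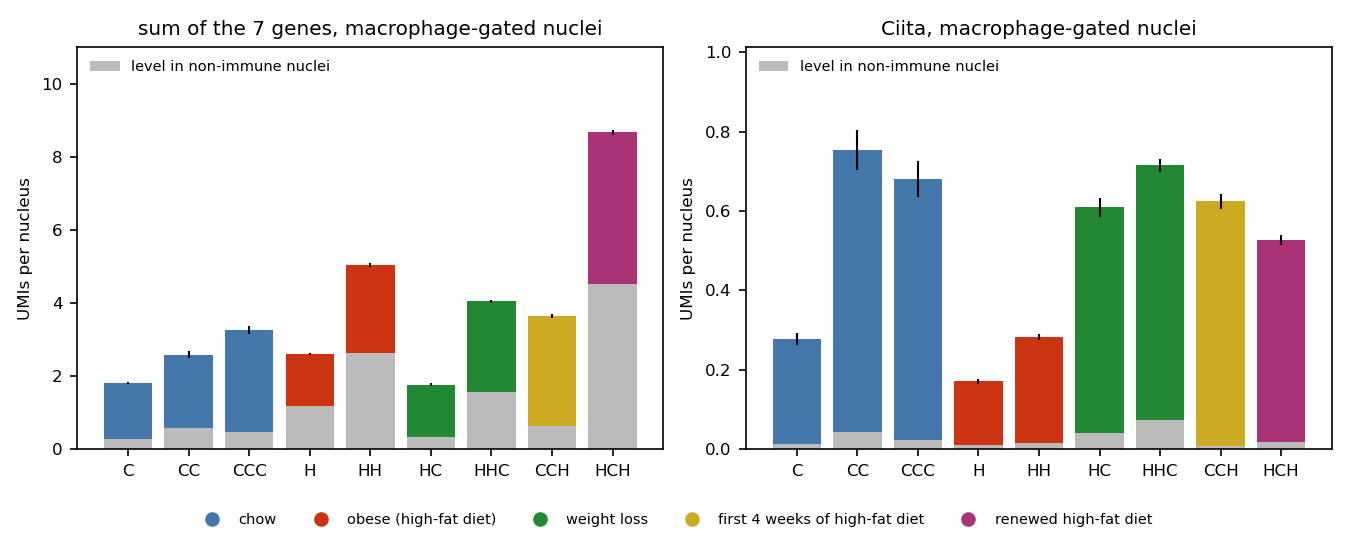
UMIs per macrophage-gated nucleus (y axes, linear, from 0) of the 7 genes together and of Ciita in the 9 libraries; the grey part of each bar is the level in progenitor, endothelial and mesothelial nuclei, the coloured part is the rest, and error bars are the counting standard error of that rest. The grey part is 52.4% of the summed bar in HH and 52.0% in HCH, but at most 10.4% of any Ciita bar.

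Within macrophages, the question was whether class II RNA made up more of the RNA of the nuclei, apart from there being more macrophages. Levels relative to all macrophage UMIs were higher for 6 genes and lower for Ciita in HH than in CC, on chow, and in HCH than in CCH, after its first short high-fat diet. Between H and C, 5 of these 6 genes were higher, by smaller log2 ratios than between HH and CC, and Ciita was lower. All these directions are as measured, before the subtraction given below. The 7 genes summed to 704.6, 753.8 and 1348 CPM in C, CC and CCC, 962.0 and 2181 in H and HH, 538.3 and 1148 in HC and HHC, 1060 in CCH and 2652 in HCH. These values rest on 309 (CC) to 5610 (HH) nuclei and 799 to 30944 UMIs of the 7 genes. The log2 ratio of HH to CC was 1.53 (95% interval 1.43 to 1.64), that of HCH to CCH 1.32 (1.28 to 1.36) and that of H to C 0.45 (0.388 to 0.511). After weight loss it was -0.49 for HC to CC (-0.605 to -0.366) and -0.23 for HHC to CCC (-0.322 to -0.141). CCC, the oldest chow library, lay above H, so that chow and obese macrophages overlapped. With the non-immune level taken off, as described next, CCC (1153.9 CPM) lay above HH (1038.4 CPM) as well. After the non-immune level per nucleus was taken off, the log2 ratio of H to C was -0.20, that of HH to CC 0.83 and that of HCH to CCH 0.54, so that the first turned and the others shrank, while HC to CC had -0.41 and HHC to CCC -0.71. With progenitor and mesothelial nuclei alone as the background they were -0.23, 0.77 and 0.55. Counted in UMIs per nucleus, less the full non-immune level, the differences were smaller for HH to CC, at 1.20-fold, and HCH to CCH, at 1.39-fold. H to C was 0.917-fold, HC to CC 0.719-fold and HHC to CCC 0.891-fold. Macrophage nuclei had a median depth of 2078.5 UMIs in HH and 3212 in CC. Single genes also changed once the full non-immune level was taken off. For H to C, Cd74 had -0.016, H2-Aa -0.60, H2-Eb1 -0.11 and H2-DMb1 -0.45. Only H2-Ab1 (0.43) and H2-DMa (0.29) of the 6 genes remained higher in H. For HCH to CCH, H2-DMb1 turned (-0.08) and the other genes higher as measured remained so. For HH to CC none of the 6 genes turned.

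Cd74 had 161.8, 172.6 and 324.9 CPM in macrophages of C, CC and CCC, 293.3 and 721.9 in H and HH, 116.5 and 318.7 in HC and HHC, 259.3 in CCH and 799.4 in HCH. Its non-immune level was 12.3% (C) to 58.3% (HCH) of the macrophage level per nucleus. With that level taken off, the log2 ratio of HH with CC went from 2.06 to 1.20 and that of HCH with CCH from 1.62 to 0.65. H2-Ab1 had 92.1, 67.0 and 163.7 CPM in chow macrophages, 166.0 and 367.5 in H and HH, 42.9 and 149.1 in HC and HHC, 154.6 in CCH and 483.8 in HCH. It kept the largest log2 ratio of the 3 A and E chains after subtraction, at 1.98 for HH with CC and 0.98 for HCH with CCH. H2-Aa spanned 80.0 (HC) to 570.3 CPM (HCH) and H2-Eb1 61.1 (HC) to 490.5 CPM (HCH), and for both HC was the lowest library. H2-DMb1 spanned 30.4 (HC) to 87.5 CPM (HH), with a log2 ratio of -0.07 for H with C whose interval (-0.324 to 0.187) held 0. H2-DMa spanned 15.1 (CC) to 65.3 CPM (HCH); the CC value rests on 16 UMIs.

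**Figure D4:**
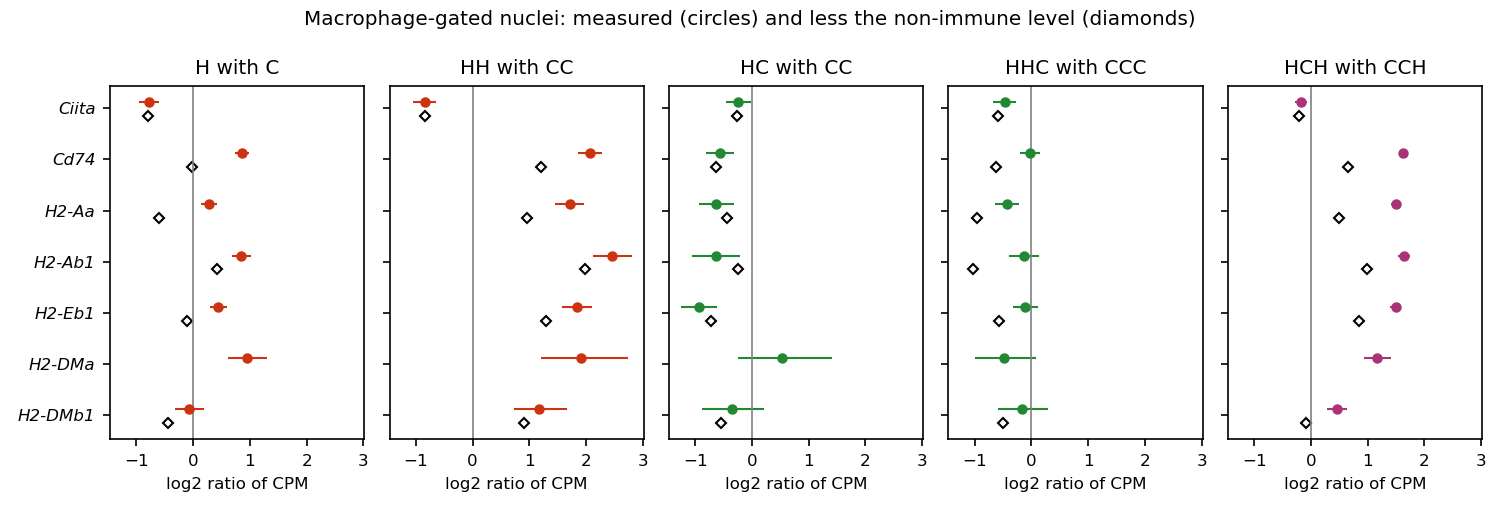
Log2 ratio of CPM in macrophage-gated nuclei (x axes) of each gene (rows) for 5 pairs of libraries, measured (circles, with exact conditional 95% intervals) and after the level per nucleus in non-immune classes was taken off (diamonds, not drawn for H2-DMa). Ciita lies below 0 in all 5 pairs, from -0.84 (HH with CC) to -0.17 (HCH with CCH), and its diamonds lie close to its circles.

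Ciita had 108.0, 219.8 and 281.5 CPM in macrophages of C, CC and CCC, 63.1 and 122.5 in H and HH, 185.6 and 202.8 in HC and HHC, 181.6 in CCH and 160.9 in HCH. All 5 libraries of the set S075 (63.1 to 181.6 CPM) lay below all 4 libraries of the set S019 (185.6 to 281.5 CPM). H lay below every other library, and HH lay between C and CC. The log2 ratio was -0.78 for H with C (-0.949 to -0.600), which share a sequencing set, and -0.84 for HH with CC (-1.04 to -0.639), which do not. HH with C, in the same set but 13 weeks apart in age, gave 0.18 (0.0212 to 0.346). Taking off the non-immune level left -0.79 for H with C and -0.85 for HH with CC. In UMIs per nucleus the rest was 0.608-fold for H with C and 0.375-fold for HH with CC. It was 1.01-fold for HH with C and 0.972-fold for HHC with CCC. At an equal depth of 1000 UMIs, 7.98%, 13.03% and 22.7% of macrophage nuclei had a Ciita UMI in C, CC and CCC, 5.67% and 10.6% in H and HH, 13.6% and 15.4% in HC and HHC, 15.6% in CCH and 13.5% in HCH. Unthinned shares were 10.8% (H) to 39.3% (CCC), against 0% to 5.41% of T or NK nuclei in libraries with at least 50 of them.

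In the edgeR fit of macrophage-gated nuclei 1 of the 7 genes was called between obese and chow libraries, Ciita, which fell by 1.25 ± 0.40 on the log2 scale (FDR = 0.0410 by edgeR). Of 14259 genes tested 34.8% were called, 15.8% lower. At an unadjusted p under 0.05 there were 3 of the 7 genes and 46.6% of all genes, and DESeq2 called 1 of the 7 and 37.0% of all. H2-DMa (0.85 ± 0.34, FDR = 0.0823 by edgeR), H2-Ab1 (1.19 ± 0.52, FDR = 0.105 by edgeR) and Cd74 (1.08 ± 0.48, FDR = 0.107 by edgeR) missed the threshold, and so did H2-Eb1 (0.81), H2-Aa (0.60) and H2-DMb1 (0.32). The median over the 7 genes was 0.81 and over all genes 0.06. In these macrophage-gated nuclei the 8 B cell markers summed to 774.1, 646.2 and 727.9 CPM in C, CC and CCC. They summed to 71.0 and 119.7 in H and HH, and to 165.0 and 184.2 in HC and HHC. The 8 dendritic cell markers had 424.6, 371.7 and 462.5 CPM in chow, 261.2 and 289.4 in H and HH, and 328.2 and 339.65 in HC and HHC. Their part in the fall of Ciita was not tested. With the sequencing set as a covariate, Ciita had a log2 fold change of -0.39 (FDR = 0.472 by edgeR), so that set and diet cannot be told apart for this gene. Its call was also lost without CC (FDR 0.0992), CCC (0.110), H (0.252) or HHC (0.0534), all by edgeR. With age as a block it had -0.94 (FDR = 0.0231 by edgeR), from H and C alone. With no filter on low counts 6 of the 7 genes were called, and 6093 of 24438 over all genes. Against chow, none of the 7 genes passed after weight loss by edgeR, where 7.90% of all genes did (4.94% higher and 2.97% lower). At an unadjusted p under 0.05 there were 0 of the 7 genes and 23.6% of all genes, and DESeq2 called 0 of the 7 and 12.1% of all.

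The kinds of macrophage differed between the same libraries. Summed UMIs of 8 markers of lipid-associated macrophages (LAM) were 215.1 to 535.7 CPM in macrophages of C, CC, CCC and CCH and 3797 to 10282 in the other 5 libraries. Markers of perivascular macrophages (PVM) were 6256 to 7899 CPM in C, CC, CCC and CCH, 1160 to 1367 in H, HH, HC and HHC and 3448 in HCH. The LAM markers thus moved with the obese and weight-loss states as well as with HCH, and their part in the class II levels was not tested. A macrophage-gated nucleus was called LAM or PVM when at least 2 of the 8 markers of that kind had a UMI. That number also had to be at least 3 times that of the other kind. Macrophages called neither kind thus include nuclei with markers of both as well as nuclei with few of either. At a depth of 1000 UMIs, macrophages of neither kind carried more class II UMIs than PVM in each of the 5 libraries with both: 1.00 against 0.563 per nucleus in C, 0.992 against 0.598 in CC, 1.68 against 1.10 in CCC, 1.41 against 0.881 in CCH and 3.39 against 2.54 in HCH. They also carried more than LAM, with 1.39 against 1.12 in H, 2.75 against 2.34 in HH, 0.686 against 0.535 in HC, 1.40 against 1.23 in HHC and 3.39 against 2.66 in HCH. Nuclei of one pool are not replicates, so these differences have no test. Within macrophages of neither kind, the log2 ratio of Ciita was -1.17 for H to C, -1.24 for HH to CC, -0.34 for HH to C and -0.62 for HCH to CCH, and that of the sum was 0.27, 1.28, 1.36 and 1.07 for the same pairs. After the non-immune level was taken off, the sum had -0.32, 0.61, 0.59 and 0.31 and Ciita -1.21, -1.26, -0.38 and -0.66. Ciita and the sum thus had opposite signs in macrophages of neither kind in 4 of these pairs as measured and in 3 after subtraction, where H to C was the exception.

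Across single macrophage nuclei of a library, Ciita and the other 6 genes were found together. Nuclei with a Ciita UMI held 1.65-fold (HCH) to 3.34-fold (H) the CPM of the other 6 genes of nuclei without one. In H the 574 nuclei with Ciita had 2418 CPM and the 4725 without had 724.2 CPM, at median depths of 2350.5 and 2472 UMIs. In HC, the other library with a ratio above 3, the values were 695.2 CPM in 322 nuclei and 215.7 CPM in 820. In the other 8 libraries nuclei with Ciita had the higher median depth, as with 3173.5 against 3027.5 UMIs in HC. At a depth of 1000 UMIs, 78.3% of macrophage nuclei in HH and 86.1% in HCH had at least 1 UMI of the 7 genes, against 85.3% and 88.2% of T or NK nuclei of the same libraries, whose intervals (76.9% to 91.5% and 83.0% to 92.3%) held these shares.

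H2-DMa differed from the other members in adipocyte nuclei when counted per nucleus. In UMIs per nucleus, adipocytes stood above the non-immune level in 6 of 9 libraries, with all 6 intervals above 1. The folds were 3.001 in C, 3.008 in H, 3.44 in HH, 1.82 in HC, 1.60 in CCH and 2.21 in HCH. In CC, CCC and HHC the folds were 1.21, 1.02 and 1.31, with intervals that held 1. For Cd74, H2-Aa, H2-Ab1 and H2-Eb1 no library gave such an interval in adipocytes, and for H2-DMb1 1 library did. Adipocyte nuclei had 13.9, 11.2 and 11.8 CPM of H2-DMa in C, CC and CCC, 50.0 and 54.5 in H and HH, 17.6 and 17.2 in HC and HHC, 13.4 in CCH and 52.5 in HCH, from 25 to 158 UMIs. H, HH and HCH lay above the other 6 libraries, with log2 ratios of 1.85 for H with C (1.27 to 2.38), 2.29 for HH with CC (1.76 to 2.84) and 1.97 for HCH with CCH (1.41 to 2.55). The non-immune level of H2-DMa was also higher there, at 0.0741 UMIs per nucleus in H against 0.0234 in C and 0.113 in HCH against 0.0444 in CCH. With it taken off, the log2 ratio in adipocytes was 1.85 for H with C, 2.06 for HH with C and 2.53 for HCH with CCH; the rest in CC, 0.0094 UMIs per nucleus, was too small for a ratio. Adipocyte nuclei had median depths of 2552 to 5476 UMIs, and H held 157 of them. In C their median was 4936.5 UMIs, against 2335, 1876 and 1890 in progenitor, endothelial and mesothelial nuclei. In CPM, the median of H2-DMa over the libraries was 17.2 in adipocytes and 15.6, 22.8 and 18.6 in these 3 classes. The highest values in a library were 54.5 CPM against 35.9, 44.5 and 29.9. The part of depth in the folds per nucleus was not tested. Epithelial nuclei, the class of the epididymal duct, reached 7.59-fold in C and had intervals above 1 in 4 of 8 libraries. Cd74 and H2-Eb1 also had such intervals in 4 of 8 libraries in this class, so these were not particular to H2-DMa. UMIs that belong to CR974462.3 on the same strand cannot be told apart from those of H2-DMa where the models overlap.

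The other genes of the pathway were read from 5 lists. Of 5 genes that process the invariant chain and antigens, 3 were called in obese macrophages, where 34.8% of all genes were, and all 3 rose: Ctsl, a protease of the endosome, by 4.08 ± 0.70 (log2, FDR = 0.00432 by edgeR), the thiol reductase Ifi30 by 2.996 ± 0.47 (FDR = 0.00333 by edgeR) and Ctss, the protease that makes the last cut in Cd74, by 2.38 ± 0.28 (FDR = 0.00117 by edgeR). Lgmn (0.23) and Sppl2a (0.23) did not pass. The same 3 genes were higher after weight loss, where 4.94% of all genes were, Ctsl by 3.79, Ctss by 2.27 and Ifi30 by 2.15 (FDR 0.0127, 0.00231 and 0.0286 by edgeR). The call of Ifi30 after weight loss held under 7 of 15 alternatives. Much of the Ifi30 level was also found in non-immune nuclei, with 0.298, 0.274 and 0.276 UMIs per nucleus in H, HH and HHC against 0.402, 0.357 and 0.439 in macrophages, and 0.0126 against 0.0352 in C. Ctss had 120.8, 105.7 and 207.1 CPM in macrophages of C, CC and CCC, 795.3 and 842.8 in H and HH, 535.3 and 870.0 in HC and HHC, 178.1 in CCH and 636.8 in HCH. The 5 libraries with high LAM markers thus stood above the others for Ctss. The non-immune level of Ctsl was 0.102 UMIs per nucleus in C, where macrophages had 0.0710, and 1.96 in H, where macrophages had 2.82. It was also above the macrophage level in CC (0.321 against 0.223) and CCC (0.209 against 0.147). No size of the change of Ctsl in macrophages can therefore be read.

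Of the turnover and costimulation genes 5 were tested; 4 fell in obese macrophages, where 15.8% of all genes did, and none rose. Cd86, a ligand of CD28 on T cells, fell by 2.78 ± 0.19 on the log2 scale (FDR = 2.7e-04 by edgeR). It had 240.2, 299.1 and 298.8 CPM in macrophages of C, CC and CCC, 41.7 and 47.6 in H and HH, 60.5 and 69.0 in HC and HHC, 193.9 in CCH and 147.5 in HCH. Every obese and weight-loss library lay below every other library. March1, a ubiquitin ligase that removes class II and Cd86 from the surface, fell by 1.08 ± 0.21 (FDR = 0.00671 by edgeR), Cd80, the second CD28 ligand, by 1.03 ± 0.23 (FDR = 0.0105 by edgeR) and Cd40 by 0.99 ± 0.31 (FDR = 0.0385 by edgeR). Cd80 in obese macrophages was below the non-immune level in H (0.0719 against 0.154 UMIs per nucleus) and near it in HH (0.0834 against 0.0697). In C it was above, with 0.161 against 0.0367, so that no size of its change in macrophages can be read. After weight loss Cd86 (-2.12) and March1 (-0.83) were lower than in chow (FDR 7.1e-04 and 0.0443 by edgeR), 2 of 5 genes where 2.97% of all genes fell. The calls of March1 after weight loss and of Cd40 in obese macrophages held under 5 and 7 of 15 alternatives, and that of Cd86 under all 15 in both comparisons. Cd83, which protects class II from March1, had 0.71 and 0.80 in these comparisons and did not pass.

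Of 7 genes that act at the X and Y boxes, only Nfya, a subunit of NF-Y, was called in obese macrophages (1.15 ± 0.24, FDR = 0.00827 by edgeR), and none after weight loss; the obese count is below the 34.8% called over all genes. The call of Nfya was lost without H (FDR 0.0726 by edgeR) and with the sequencing set as a covariate (FDR 0.0552 by edgeR). The RFX subunit Rfxap had the highest value, 1.48, and did not pass. Of 6 tested genes of the interferon-gamma axis, which induces Ciita, the receptor chain Ifngr2 rose by 0.84 ± 0.23 (FDR = 0.0219 by edgeR) and the kinase Jak1 fell by 1.11 ± 0.18 (FDR = 0.00397 by edgeR) in obese macrophages, a share near that over all genes. The call of Ifngr2 was lost without H or HH (FDR 0.0934 and 0.104 by edgeR), with the set as a covariate (FDR 0.127 by edgeR) and with 2 of the 3 marker-count gates. Of the other class II chains, H2-DMb2 and H2-Ob were tested in macrophages and neither passed (-1.61 and -0.88). H2-DMb2 is a close copy of H2-DMb1, so reads shared by them may not have been counted.

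**Figure D5:**
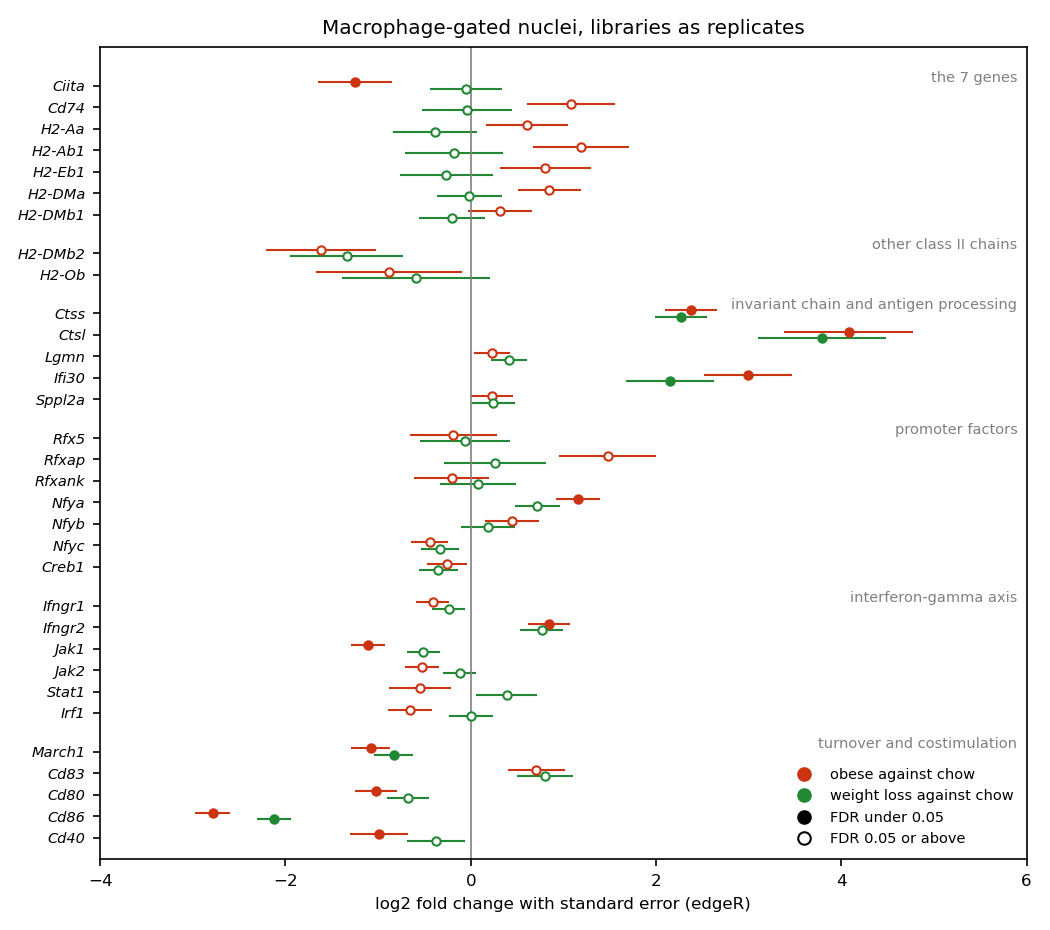
Log2 fold change with its standard error (x axis) in macrophage-gated nuclei for the 7 genes and the tested genes of 5 pathway lists (rows), obese against chow (red) and weight loss against chow (green), from edgeR with libraries of a diet state as replicates; filled points have an FDR under 0.05. Ciita, Cd86, March1, Cd80, Cd40 and Jak1 are filled on the left in red, and Ctsl, Ctss, Ifi30, Nfya and Ifngr2 on the right.

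In whole libraries the lists gave other counts. Of the processing genes 4 of 5 rose in the obese state (Ctss 3.96, Ifi30 3.44, Ctsl 3.02 and Lgmn 1.98), where 14.6% of all genes rose, and 3 after weight loss (Ctss 3.70, Ifi30 2.47 and Lgmn 1.92), where 4.94% rose. Of the turnover and costimulation genes, Cd83 rose by 2.33 and Cd80 by 1.10 in the obese state, and none fell, 2 of 5 genes. After weight loss 3 of 5 rose, Cd83 by 2.21, Cd40 by 1.24 and Cd80 by 0.93. The weight-loss calls of Cd40, Ifi30 and Cd80 held under 2, 4 and 5 of 11 alternatives. In the obese state Cd86 (-0.50) was not called. Ifngr2 rose by 1.42 and Ifngr1 fell by 0.76 among the 7 interferon-gamma genes in the obese state, Ifngr2 alone rose after weight loss (1.25), and Nfya rose by 1.13 among the 7 promoter factors in the obese state, where 26.6% of all genes were called in either direction, and 8.65% after weight loss. All of these passed at an FDR under 0.05 in the edgeR fit (0.00166 to 0.0395). In the obese state, Cd83, Ctss and Ifi30 were called under all 11 alternatives; without H the calls of Ctsl (FDR 0.116), Nfya (0.106), Cd80 (0.0963), Ifngr1 (0.226), Ifngr2 (0.0532) and Lgmn (0.0524) were lost, and with the sequencing set as a covariate those of Cd80 (0.0548) and Nfya (0.0552), by edgeR. None of the 4 other class II chains passed.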

How the data were processed

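The authors deposited counts of UMIs per gene and barcode without normalization, made with Cell Ranger 6.1.2 on the 10x mouse reference of GRCm38 with intronic reads included. Gene totals therefore include RNA that is not yet spliced. The authors' doublet removal came after the deposited step. The 9 libraries held 5173 to 14833 barcodes and 22599619 to 66615262 UMIs. Pairs of libraries shared 8 to 55 barcodes, at most 0.493% of the smaller library.

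Mitochondrial genes and Malat1 (3.89% to 10.6% of UMIs) were left out of totals. Whole-library values use all barcodes. Class values use nuclei with 500 to 3000 genes and at most 40000 UMIs, as in the study (4144 to 13330 a library). The members, lists and tests were chosen with earlier results of these data known. Nuclei were to be gated by marker counts (at least 2 of 8 markers of a class and 3 times those of any other), but this left 7 macrophages in CC. After these counts had been seen, a Poisson mixture over the same markers, seeded by marker counts, was taken instead: 10 rounds, a probability of at least 0.95, at least 2 markers, and nuclei resembling 2 classes at once (9.96% to 21.8%) set apart. No other doublet caller was run. It placed 42.0% to 74.5% of nuclei, 309 to 5610 of them as macrophages. Classes with under 50 nuclei in a library were not read there.

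CPM values carry exact Poisson, ratios exact conditional and shares exact binomial (Clopper-Pearson) 95% intervals, for counting error only. Tests were edgeR 4.0.16 quasi-likelihood fits (TMM, filterByExpr) on UMIs summed per library, adjusted over all genes; p-values measure the spread between libraries of one diet state. The samples are pools, and the study's test over nuclei was not used. DESeq2 1.42.0, other filters, gates and scalings, age as a block, and leaving out each library were alternatives. The edgeR fits were also run on simulated counts with the same spread for every gene. These held no differences of age, sequencing set or diet duration, so they do not test how the fits handle such differences. Named were the 7 genes, pathway genes called in a fit or at the ends of their list, and the 10 genes most alike. Tools were R 4.3.3, Python 3.11.15, scipy 1.17.1 and pandas 2.3.3.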

Additional observations from a re-analysis of the deposited data

Results flagged for a closer look

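In whole libraries 4 of the 7 genes and their sum moved in opposite directions in the 2 weight-loss comparisons, each of which sets 1 library against the chow library of the same age. The log2 ratio was -0.59 for HC with CC and 0.97 for HHC with CCC for Cd74, -0.85 and 0.72 for H2-Aa, -0.99 and 0.83 for H2-Ab1, -1.03 and 0.93 for H2-Eb1, and -0.46 and 0.89 for the sum. The difference between the comparisons was not tested, since each diet has 1 library. Directions were read from intervals of counting error only. How many of all genes did the same was not counted, so no trait of these genes can be read from the count. In HC and HHC 21.2% and 33.7% of nuclei were gated as macrophages, against 7.46% in CC and 5.77% in CCC, and the part of these shares in the result was not tested. A class was found for 64.2% and 64.4% of nuclei in HC and HHC, but for 47.1% and 42.0% in CC and CCC. Within macrophage-gated nuclei the sum was lower in both comparisons (-0.49 and -0.23).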

How the results depend on the processing

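Each diet is 1 library and its number 1 only names it, so replicate numbers pair no libraries. Ages tie H/C, HC/CC and HHC/CCC, and with age as a block, added after seeing the data and with 1 residual degree of freedom, edgeR called 0 of the 7 genes in whole libraries in the obese state and after weight loss (2760 and 2203 of 20789 genes), and in macrophages 1, Ciita, and 0 (3744 and 1734 of 14259). HH, alone at its age, then adds nothing to the contrast. The number of the 7 genes called in whole libraries between obese and chow (3) was 6 with DESeq2 (36.4% of all genes called), 6 with no filter on low counts (5224 of 28444), 0 with the sequencing set as a covariate (3199 of 20789), 5 in nuclei within the limits (5890 of 19918), and 0 (without H or HH; 540 of 21583 and 782 of 21393) to 6 (without HC or HHC; 6084 of 21907 and 6058 of 21452) when single libraries were left out. After weight loss DESeq2 called 1 (18.6% of all genes). In obese macrophages (1 called) it was 6 with no filter (6093 of 24438), 0 with the set as a covariate (2435 of 14259), 0 with each marker-count gate (2 markers and 3 times, 3 markers, 2 times; 3002 of 13727, 2923 of 13500 and 3712 of 14907) and 0 (without CC or H; 3839 of 15391 and 1682 of 15081) to 2 (without HC; 5616 of 16426) when single libraries were left out. The marker-count gates left under 50 macrophages in CC, which they omit, and give no ratio with CC. Under the 15 alternatives Ciita was lower in obese macrophages in 15 and called in 7, with FDR from 2.9e-04 to 0.472 by edgeR or DESeq2.

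Log2 ratios of the sum in whole libraries (HH/CC is HH over CC), in nuclei within the limits, were 2.69 for HH/CC, -0.18 for HC/CC, 1.00 for HHC/CCC, 2.11 for HCH/CCH and 3.09 for HH/C. Without Cd74 they were 1.81 for H/C, 2.12 for HH/CC, -0.42 for HC/CC, 2.33 for HCH/CCH and 2.86 for HH/C. With TMM factors they were 1.79 for H/C, 1.90 for HH/CC, 2.32 for HCH/CCH and 2.89 for HH/C. In macrophages the ratios with the 2-marker gate of 3 times were 0.51 for H/C, -0.14 for HHC/CCC and 1.41 for HCH/CCH, with 3 markers -0.14 and 1.42 for the latter pairs, and with 2 times -0.13 for HHC/CCC. With no upper limit on genes they were 0.29 for H/C, 1.38 for HH/CC, -0.88 for HC/CC, -0.56 for HHC/CCC and 1.23 for HCH/CCH. Without Cd74 they were 0.30 for H/C, 1.33 for HH/CC, 1.21 for HCH/CCH and 1.43 for HH/C, and with TMM factors 0.38, 1.42, 1.20 and 1.52 for these pairs. Less the non-immune level, chosen after seeing the data, they were -0.20 for H/C (reversed), 0.83 for HH/CC, -0.71 for HHC/CCC, 0.54 for HCH/CCH and 0.79 for HH/C. With progenitor and mesothelial nuclei alone as that level they were -0.23 for H/C (reversed), 0.77 for HH/CC, -0.79 for HHC/CCC, 0.55 for HCH/CCH and 0.78 for HH/C. In all these cases, and in those below, the cause was not tested.

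Single genes that turned were not called in the reported fit. When single libraries were left out, log2 fold changes in whole libraries ran from -0.13 to 0.55 for Ciita (obese) and, after weight loss, from -0.32 to 1.33 for Cd74, -0.67 to 0.94 for H2-Aa, -0.84 to 1.08 for H2-Ab1 and -0.82 to 1.19 for H2-Eb1. In macrophages they ran from -0.10 to 1.13 for H2-Aa and -0.25 to 0.78 for H2-DMb1 (obese) and, after weight loss, from -0.35 to 0.25 for Ciita, -0.79 to 0.49 for Cd74, -0.99 to 0.070 for H2-Aa, -1.19 to 0.43 for H2-Ab1, -1.24 to 0.34 for H2-Eb1, -0.25 to 0.34 for H2-DMa and -0.54 to 0.10 for H2-DMb1. After weight loss macrophages with no filter gave 0.0086 for Ciita, 0.029 for Cd74 and 0.050 for H2-DMa. The 2-marker gate of 3 times gave 0.18 for Ciita, 0.042 for H2-Ab1 and 0.090 for H2-DMa, the 3-marker gate 0.18, 0.030 and 0.081, and the gate of 2 times 0.21 for Ciita. Among pathway genes in obese macrophages, Cd86, Ctsl, Ctss, Ifi30 and Jak1 were called under all 15 alternatives and Cd40 under 7; without H the calls of Cd40 (FDR 0.216), Cd80 (0.146), March1 (0.0865), Ifngr2 (0.0934) and Nfya (0.0726) were lost, without HH those of Cd40 (0.152) and Ifngr2 (0.104), and without CC or CCC that of Cd40 (0.108 and 0.0896). After weight loss Ifi30 was called under 7 and March1 under 5 of the 15. In whole libraries, without HH the calls of Ctsl (FDR 0.0824), Cd80 (0.0739) and Ifngr1 (0.162) in the obese state were lost, and without CC those of Ctsl (0.0528) and Ifngr1 (0.0983). Ifngr1 was called under 5 of 11 alternatives there, and after weight loss Cd40 under 2, Ifi30 under 4 and Cd80 under 5. Of the 7 genes, H2-DMa had the fewest UMIs in macrophages of CC, 16.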

Other observations

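The genes whose level was most like the mean of the 7 genes were sought over 75 sums of a library and a cell class with at least 50 nuclei, among 11048 genes. Likeness was Pearson's correlation of log2(CPM + 1), given as a description, since the sums share libraries, depth and background UMIs. The 10 highest were Erp29 (0.853), Unc93b1 (0.849), Clec12a (0.844), Man2b1 (0.835), Evi2a (0.832), Alox5ap (0.832), E330020D12Rik (0.831), Cd83 (0.829), C1qb (0.827) and H3f3a (0.819). Means were taken over the 9 macrophage sums and over the sums of classes other than macrophages, B cells and dendritic cells. Unc93b1, which escorts Toll-like receptors to the endosome, had means of 434.9 and 63.1 CPM. Clec12a, a lectin of myeloid cells, had 193.8 and 22.2 CPM, and Cd83 had 93.1 and 9.67 CPM. H3f3a, a histone gene found in all cell types, had 130.8 and 117.5 CPM.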
